A study of Mus musculus with 10 samples.

Results

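Leukocytes leave the blood by rolling on selectins, arresting through activated integrins and then crossing the vessel wall. An integrin is a pair of one α and one β subunit, and a subunit reaches the surface only with its partner. The β2 integrins (CD18 paired with CD11a, CD11b or CD11c) bind ICAMs and complement fragments, the α4 integrins bind VCAM-1 or MAdCAM-1, αEβ7 binds E-cadherin, and PSGL-1 is the main ligand of P-selectin on leukocytes. Eosinophils are known to use α4 integrins to enter inflamed airways, whereas the DX5 antigen CD49b is a surface marker by which murine basophils are purified.

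The signals of 9 genes for such receptors were examined in cultured allergic effector cells. They were *Itgam* (CD11b), *Itgax* (CD11c), *Itgal* (CD11a), *Itgb2* (CD18), *Itga4* (CD49d), *Itgb7* (the β7 subunit), *Itgae* (CD103), *Itga2* (CD49b) and *Selplg* (PSGL-1). They were picked by name for their function, out of 19937 named genes on the array, with earlier results of these data known. All 9 were measured, each by 1 probe set that the platform annotation assigns to that gene alone. A further 2 probe sets are assigned to *Itgam* together with a ribosomal protein gene and were not used.

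The RNA came from bone marrow (BM) cultures of 2 mouse genotypes, Slpi-/- and B6. The B6 strain is labelled C57BL6/N. *Slpi* encodes secretory leukoprotease inhibitor, and the Slpi-/- mice lack it in every cell. BM-derived eosinophils (BMEos) were grown in SCF and Flt3 ligand and then in IL-5, and were left unstimulated or given LPS for 3 h. BM-derived basophils (BMBs) were grown in IL-3, selected as c-kit-negative, DX5-positive cells, and were left unstimulated or given anti-TNP-IgE for 1 h and TNP-OVA for 12 h. Mast cells were grown in IL-3 for weeks and were unstimulated. Each of the 10 combinations was hybridised to 1 array, and the sources do not say how many mice or cultures an array holds, so p-values measure the spread between these arrays, which may in part be technical. For cell types and stimuli the 2 genotypes stand in for replicates, so the spread comes from how far differences disagree between the genotypes. Each fit pools that disagreement over its cell types, and limma draws the spread of a gene towards that of all genes. For genotype within BMBs or within BMEos, the unstimulated and stimulated arrays stand in for replicates. The DX5 antigen is the product of *Itga2*, so the *Itga2* signal in BMBs describes selected cells.

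The labels were checked first. *Slpi* had log2 signals of 6.55 and 6.35 on the Slpi-/- BMB arrays against 11.42 and 11.33 in B6, and of 6.41 and 5.93 on the Slpi-/- BMEos arrays against 8.08 and 7.96 in B6. Both mast cell arrays were low (6.47 in Slpi-/- and 6.53 in B6), so *Slpi* does not check that pair. *Prg2* of eosinophil granules was at 12.02 to 12.35 on the 4 BMEos arrays, the basophil protease gene *Mcpt8* at 12.72 to 13.29 on the 4 BMB arrays, and the chymase gene *Cma1* at 11.99 and 12.19 on the mast cell arrays. The LPS arrays stood apart in one respect. *Xist* was at 9.66 and 9.72 on them, against 3.99 to 4.90 on the other 8 arrays, and the Y-linked *Eif2s3y* was at 3.54 and 3.22, against 7.62 to 8.48 elsewhere. The LPS arrays thus hold cells of other mice than the unstimulated BMEos arrays. Sex, mouse and culture therefore cannot be told apart from LPS in any LPS comparison. A signal is called above background here when it exceeds the 95th percentile of 1027 olfactory receptor genes on that array, a limit that lay between 5.56 and 5.78.

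The first question was how the receptors differ between the 3 cell types without stimulation. Of the 9 genes, 8 were higher in BMEos than in mast cells (all but *Itgb7*) and 8 were higher in BMBs than in mast cells (all but *Itgae*), with 0 lower in either comparison. However, 5 of them (*Itgam*, *Itgax*, *Itga4*, *Itgae* and *Itga2*) were below background on both mast cell arrays and entered the test through other arrays. A lower call against mast cells was hardly possible for these genes, so the absence of such calls carries little information. Of 12998 genes tested, 51.1% were called between BMEos and mast cells (24.3% higher, 26.8% lower), 36.7% between BMBs and mast cells (18.8% higher) and 39.7% between BMEos and BMBs (18.6% higher, 21.2% lower), by limma with Benjamini-Hochberg adjustment at 0.05. The β2 integrin genes *Itgam*, *Itgal* and *Itgb2* were far higher in both granulocyte types than in mast cells, while *Itgb7* was within 1 log2 unit across all 3. Against BMBs, BMEos had more *Itgam*, *Itgax*, *Itga4* and *Itgae* RNA and less *Itgal*, *Itgb7* and *Itga2* RNA. In bulk samples, fewer cells with a transcript and less transcript per cell cannot be told apart.

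**Figure D1:**
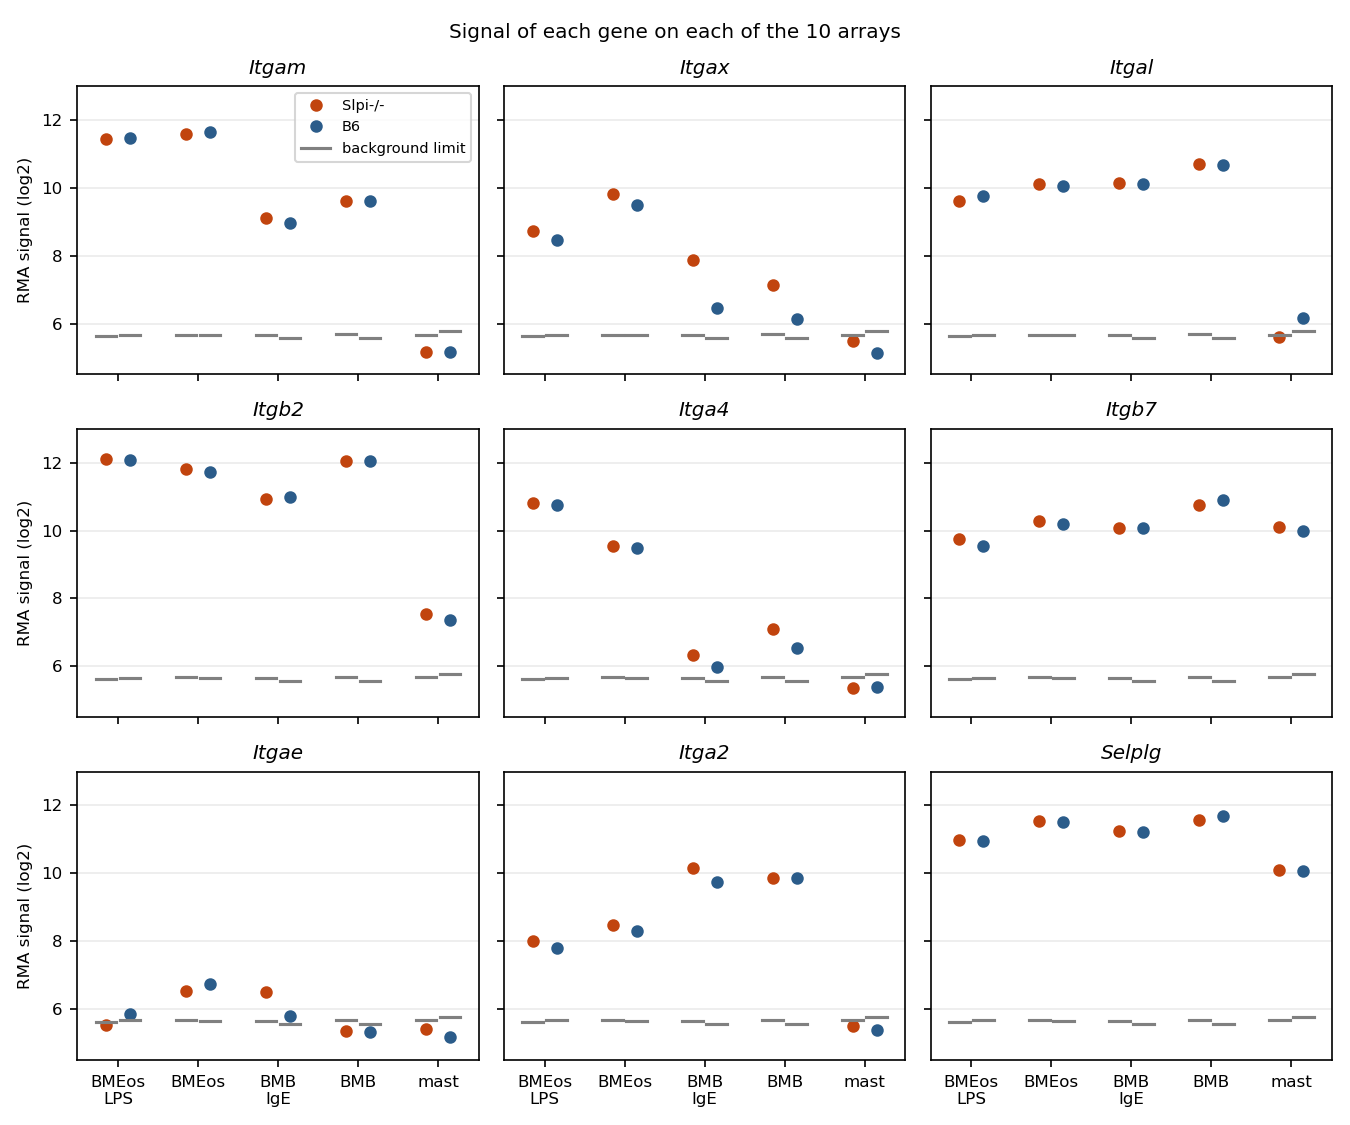
RMA signal on the log2 scale (vertical axis) of each of the 9 genes on the 10 arrays, 1 point per array (orange, Slpi-/-; blue, B6), with the background limit of each array as a grey bar. *Itgb7* and *Selplg* lie well above the limit everywhere, whereas *Itgam*, *Itgax*, *Itga4*, *Itga2* and *Itgae* lie below it on both mast cell arrays.

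*Itgam* encodes αM, which pairs with CD18 to form Mac-1, a receptor for ICAM-1 and complement iC3b. Its log2 signals were 11.59 and 11.65 in Slpi-/- and B6 BMEos, 9.63 and 9.61 in Slpi-/- and B6 BMBs, and 5.17 and 5.15 in Slpi-/- and B6 mast cells. Each cell type occupied its own narrow range, and the mast cell arrays were below background. Where both arrays of a cell type were below background, its level is known only as an upper bound, taken as the mean background limit of its arrays. On that footing *Itgam* was at least 59.3-fold higher in BMEos and at least 14.8-fold higher in BMBs than in mast cells. The fitted log2 differences were 6.45 ± 0.09 and 4.45 ± 0.09 (SE, limma), with adjusted p of 1.09e-07 and 5.49e-07. BMEos exceeded BMBs by 2.003 ± 0.09 (adjusted p = 1.08e-05).

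*Itgax*, for the αX subunit of CD11c, lies next to *Itgam* on chromosome 7 with 1 gene model between them in the RefSeq table. Its signals were 9.80 and 9.51 in Slpi-/- and B6 BMEos, 7.12 and 6.12 in Slpi-/- and B6 BMBs, and 5.49 and 5.13 in Slpi-/- and B6 mast cells. The order of the cell types was that of *Itgam*, but the BMB arrays were much closer to background, and the genotypes differed more within BMBs than within BMEos or mast cells. *Itgax* was at least 15.2-fold higher in BMEos and at least 1.86-fold higher in BMBs than in mast cells, and BMEos exceeded BMBs by 3.03 ± 0.18 on the log2 scale (adjusted p = 2.75e-05).

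The sequence before the start of the gene is shown for these neighbours, whose signals differed between the cell types by unequal amounts. Both are 250 bases from RefSeq (GRCm38.p6), on the plus strand and ending at the base before the annotated start, at chr7:128062390-128062639 for *Itgam* and chr7:128129300-128129549 for *Itgax*. Capitals mark GAGGAA or its reverse complement TTCCTC, a core bound by the myeloid ETS factor PU.1.
Itgam: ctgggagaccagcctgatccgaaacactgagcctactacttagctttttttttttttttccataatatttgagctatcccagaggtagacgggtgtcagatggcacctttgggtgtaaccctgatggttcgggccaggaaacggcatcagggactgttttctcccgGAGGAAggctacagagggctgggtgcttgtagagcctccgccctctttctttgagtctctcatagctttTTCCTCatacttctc
Itgax: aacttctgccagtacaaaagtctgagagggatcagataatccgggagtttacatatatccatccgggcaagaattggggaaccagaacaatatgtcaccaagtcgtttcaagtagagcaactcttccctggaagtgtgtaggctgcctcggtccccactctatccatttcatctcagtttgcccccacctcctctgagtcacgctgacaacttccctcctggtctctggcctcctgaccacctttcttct
The *Itgam* window held these letters 2 times, their first base at -84 and -15 relative to the start, and the *Itgax* window held them 0 times. Of 32851 RefSeq promoter windows of this length, 23.3% held the letters on either strand. Of the 9 genes, 5 had a window in the table (*Itgam*, *Itgax*, *Itga4*, *Itgb7* and *Itga2*), and *Itgam* was the one among them with a match to these letters. A pair of other motifs was searched on both strands of the same windows. The GATA letters AGATAA were found 1 time in the *Itgax* window and in 9.99% of all windows, and the RUNX letters TGTGGT 1 time in the *Itga4* window and in 14.0% of all windows, with 0 matches of either in the other windows of the 5. A match is a description of the letters and was not tested as a binding site.

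*Itgal* encodes αL of LFA-1, the β2 integrin that binds ICAM-1 and ICAM-2. It had signals of 10.12 and 10.05 in Slpi-/- and B6 BMEos, 10.71 and 10.68 in Slpi-/- and B6 BMBs, and 5.60 and 6.15 in Slpi-/- and B6 mast cells, where the Slpi-/- array was below background and the B6 array above it. BMEos and BMBs did not overlap with each other or with mast cells. *Itgal* was higher than in mast cells by 4.21 ± 0.16 in BMEos and by 4.82 ± 0.16 in BMBs (adjusted p = 2.32e-06 and 2.61e-06). Here BMBs were the higher of the granulocytes, with BMEos below BMBs (-0.61 ± 0.16, adjusted p = 0.0235), a call that was lost without the Slpi-/- BMB array (-0.47, adjusted p = 0.129) or without the B6 BMEos array (-0.45, adjusted p = 0.172).

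*Itgb2* encodes CD18, the β subunit on which αM, αX and αL all depend. Its signals were 11.82 and 11.74 in Slpi-/- and B6 BMEos, 12.05 on both BMB arrays, and 7.55 and 7.38 in Slpi-/- and B6 mast cells. It was above background on all 10 arrays, mast cells included. The differences from mast cells were 4.31 ± 0.10 in BMEos and 4.59 ± 0.10 in BMBs (adjusted p = 3.45e-07 and 5.49e-07). BMEos and BMBs differed by -0.27 ± 0.10 (95% interval -0.51 to -0.04, adjusted p = 0.0668), which missed the threshold, and passed it under 4 alternatives.

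The α4 and β7 subunits pair with each other and with other partners. *Itga4* had signals of 9.54 and 9.48 in Slpi-/- and B6 BMEos, 7.10 and 6.55 in Slpi-/- and B6 BMBs, and 5.37 and 5.38 in Slpi-/- and B6 mast cells, so that mast cells were below background and BMBs lay between. It was at least 13.7-fold higher in BMEos and at least 2.14-fold higher in BMBs than in mast cells, and BMEos exceeded BMBs by 2.69 ± 0.15 (log2, adjusted p = 2.30e-05). *Itgb7* showed no such gap. Its signals were 10.29 and 10.20 in Slpi-/- and B6 BMEos, 10.75 and 10.91 in Slpi-/- and B6 BMBs, and 10.09 and 9.98 in Slpi-/- and B6 mast cells. BMBs exceeded mast cells by 0.80 ± 0.11 (adjusted p = 0.0015), BMEos were below BMBs (-0.59 ± 0.11, adjusted p = 0.0053, but -0.53 and 0.0533 without the B6 BMEos array), and BMEos and mast cells differed by 0.21 (95% interval -0.06 to 0.47, adjusted p = 0.166). The order was thus BMBs, BMEos and mast cells, and the last of these steps did not pass, except when arrays were centred on their medians (0.33, adjusted p = 0.0437).

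*Itgae* encodes αE, which pairs with β7 on intraepithelial lymphocytes and some dendritic cells. It was low everywhere. Its signals were 6.54 and 6.75 in Slpi-/- and B6 BMEos, 5.36 and 5.31 in Slpi-/- and B6 BMBs, and 5.42 and 5.18 in Slpi-/- and B6 mast cells, so that it was above background in BMEos and below it in the other 2 cell types. *Itgae* was at least 1.89-fold higher in BMEos than in mast cells and at least 2.03-fold higher than in BMBs. The fitted log2 differences were 1.34 ± 0.13 and 1.31 ± 0.13 (limma, adjusted p = 1.40e-04 and 2.72e-04). No fold is given between BMBs and mast cells, both being below background.

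*Itga2* encodes α2, which pairs with β1 as a collagen receptor. Its signals were 8.48 and 8.32 in Slpi-/- and B6 BMEos, 9.86 and 9.85 in Slpi-/- and B6 BMBs, and 5.51 and 5.39 in Slpi-/- and B6 mast cells. BMEos, which were not selected with DX5, were well above background and at least 6.37-fold above mast cells (fitted log2 difference 2.95 ± 0.10, adjusted p = 1.20e-06). BMBs, which were selected with it, were at least 17.5-fold above mast cells, and BMEos were below BMBs (-1.46 ± 0.10, adjusted p = 5.20e-05).

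*Selplg* encodes PSGL-1, which also binds E- and L-selectin when suitably glycosylated. It was high on every array, with signals of 11.55 and 11.52 in Slpi-/- and B6 BMEos, 11.57 and 11.70 in Slpi-/- and B6 BMBs, and 10.09 and 10.07 in Slpi-/- and B6 mast cells. BMEos exceeded mast cells by 1.45 ± 0.10 and BMBs exceeded them by 1.55 ± 0.10 (adjusted p = 2.75e-05 and 3.71e-05). BMEos and BMBs differed by -0.10 (95% interval -0.33 to 0.14, adjusted p = 0.497).

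The median log2 difference over the 9 genes was 4.13 between BMEos and mast cells and 1.55 between BMBs and mast cells, against -0.04 and -0.01 over all genes tested. With the genes below background in mast cells at their bounds it was 3.78 and 1.55. Between BMEos and BMBs it was -0.10, against -0.03 over all genes, with 4 genes higher, 3 lower and 2 not called. A paired t-test, which the methods name, had 1 degree of freedom here and called 0 of the 9 genes in each of the 3 comparisons after adjustment, and 8, 5 and 3 of them at an unadjusted p under 0.05.

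**Figure D2:**
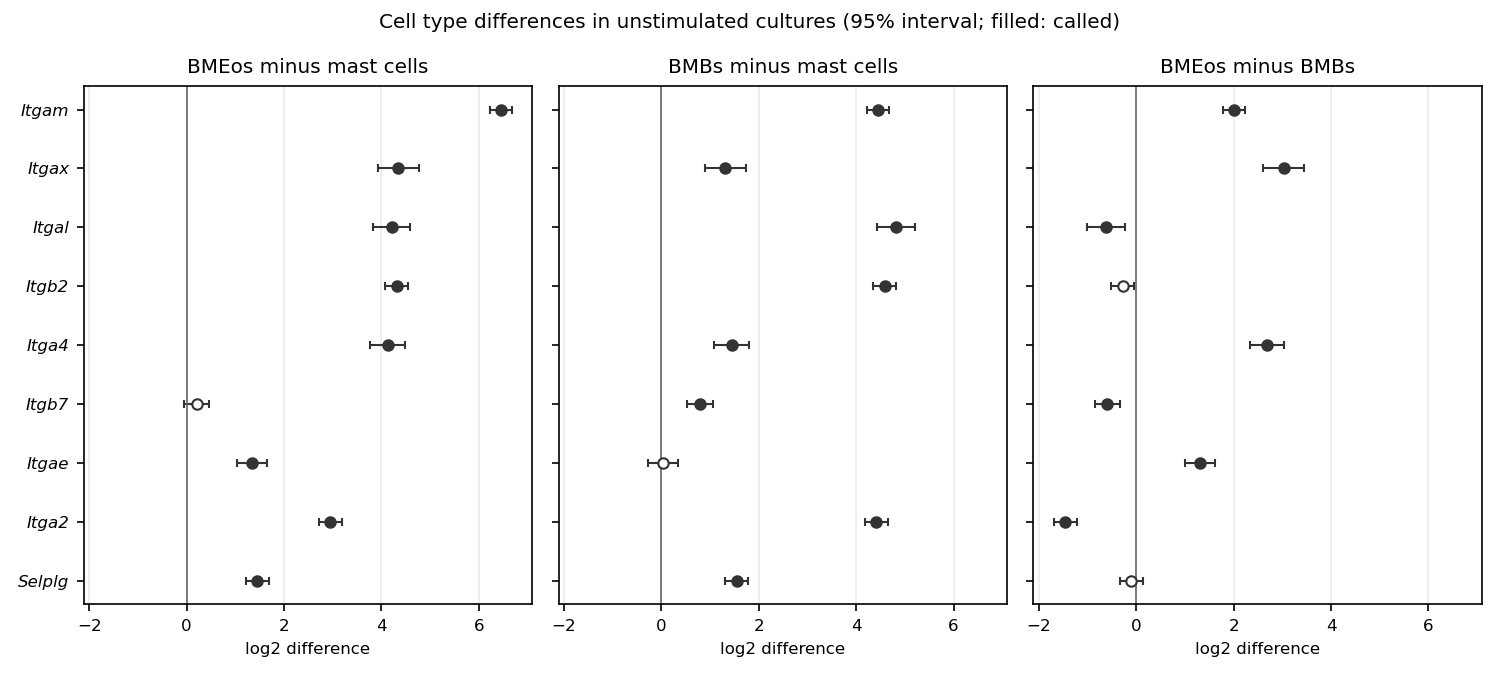
Fitted log2 difference (horizontal axis) of each gene between unstimulated cell types, with its 95% interval; filled points passed the adjusted threshold. All genes but *Itgb7* (0.21) passed between BMEos and mast cells. The values of *Itgam*, *Itgax*, *Itga4*, *Itga2* and *Itgae* against mast cells rest on mast cell signals below background, and are not to be ranked.

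Markers of other cells also differed between the cell types. The macrophage marker *Adgre1*, which eosinophils also express, was below background in mast cells and at least 82.3-fold higher in BMEos and at least 40.8-fold higher in BMBs without stimulation. Over all arrays of each cell type, stimulated ones included, 3 to 4 of 5 measured monocyte and macrophage markers were above background in BMEos, 4 of 5 in BMBs and 0 to 1 in mast cells. The log2 of their summed signals was 12.34 to 12.88 in BMEos, 11.07 to 11.96 in BMBs and 7.46 to 7.56 in mast cells. In BMEos and BMBs most of that sum was *Adgre1*, at 12.09 to 12.55 and 10.82 to 11.88. Of 7 neutrophil markers, 6 to 7 were above background in BMEos, 2 to 4 in BMBs and 0 to 2 in mast cells, with log2 sums of 11.68 to 12.09, 11.11 to 12.75 and 8.19 to 8.21. The granule genes *Mpo* and *Elane* of neutrophil precursors were at 8.84 and 7.14 on the unstimulated B6 BMB array, against 5.60 to 5.995 and 5.16 to 5.47 on the other BMB arrays. The part of these cells in the integrin differences was not tested. Whichever of the 6 arrays was left out, the 8 genes other than *Itgb7* were called in BMEos against mast cells. In BMBs these were the 8 genes other than *Itgae*. Members below background on both mast cell arrays entered the test through other arrays, so for them this carries little information.

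The next question was how the receptors of BMEos differ with LPS. With LPS, *Itga4* and *Itgb2* were higher and *Itgax*, *Itgae*, *Itgb7*, *Selplg*, *Itga2* and *Itgal* were lower, while *Itgam* did not pass. Of 13571 genes tested, 28.9% were called (12.7% higher, 16.2% lower), and the median difference was -0.49 over the 9 genes and 0.02 over all genes. The LPS arrays were the ones with high *Xist*, so each value in this comparison carries that confound. Arrays compared within a genotype here come from different mice.

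*Itga4* had signals of 10.82 and 10.74 in Slpi-/- and B6 BMEos with LPS, against 9.54 and 9.48 in Slpi-/- and B6 BMEos without it. Both stimulated arrays were above both unstimulated ones, by 1.27 in either genotype. The fitted difference was 1.27 ± 0.10 (adjusted p = 4.18e-04), and it was called whichever of the 10 arrays was left out. *Itgb7*, the partner of α4 in the MAdCAM-1 receptor, went the other way, with 9.75 in Slpi-/- and 9.54 in B6 with LPS, against 10.29 in Slpi-/- and 10.20 in B6 without (-0.60 ± 0.10, adjusted p = 0.0070). *Itgb1*, for the other β partner of α4, is no member of the group of 9 but completes that pair. It rose by 1.08 ± 0.09 (adjusted p = 5.58e-04), to 10.78 in Slpi-/- and 10.72 in B6 with LPS, against 9.72 in Slpi-/- and 9.62 in B6 without.

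Among the β2 genes, *Itgax* fell to 8.73 in Slpi-/- and 8.47 in B6 with LPS, against 9.80 in Slpi-/- and 9.51 in B6 without, a difference of -1.06 ± 0.12 (adjusted p = 0.0016). The ranges did not overlap, and each genotype fell by a like amount, 1.08 in Slpi-/- and 1.04 in B6. *Itgal* was at 9.60 (Slpi-/-) and 9.76 (B6) with LPS, against 10.12 (Slpi-/-) and 10.05 (B6) without it, and thus lower (-0.40 ± 0.10, adjusted p = 0.0277). *Itgb2* was slightly higher, at 12.12 (Slpi-/-) and 12.09 (B6) with LPS, against 11.82 (Slpi-/-) and 11.74 (B6) without it (0.33 ± 0.09, adjusted p = 0.0401). *Itgam* was at 11.43 (Slpi-/-) and 11.46 (B6) with LPS, against 11.59 (Slpi-/-) and 11.65 (B6) without it, and its difference of -0.17 had a 95% interval of -0.40 to 0.05 (adjusted p = 0.214).

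The remaining members were lower with LPS. *Itgae* was at 5.52 (Slpi-/-, below background) and 5.87 (B6) with LPS, against 6.54 (Slpi-/-) and 6.75 (B6) without (-0.95 ± 0.16, adjusted p = 0.0072). *Selplg* was at 10.98 (Slpi-/-) and 10.96 (B6) with LPS, against 11.55 (Slpi-/-) and 11.52 (B6) without (-0.56 ± 0.10, adjusted p = 0.0077). *Itga2* was at 8.01 (Slpi-/-) and 7.81 (B6) with LPS, against 8.48 (Slpi-/-) and 8.32 (B6) without (-0.49 ± 0.12, adjusted p = 0.0256). In each of these genes both LPS arrays were below both unstimulated arrays.

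Leaving out any 1 of the 4 BMEos arrays kept 3 of the 8 calls, namely *Itga4* and *Itgax* in every case and *Itgae* or *Itgb7* as the third, and the paired t-test called 0 after adjustment and 5 at an unadjusted p under 0.05. Marker lists moved with LPS as well. The log2 summed signal of the monocyte and macrophage list was 12.83 to 12.88 with LPS against 12.34 to 12.37 without. The rise came mostly from *Adgre1*, which eosinophils also express (12.53 in Slpi-/- and 12.55 in B6 with LPS, against 12.09 in both without). Of the 5 genes of that list 3 were called higher, while *C1qb* (0.14) and *Mrc1* (-0.43) did not pass. The log2 sum of the dendritic cell list was 9.51 to 9.52 against 8.82 to 8.97, mostly through *Cd74* (8.15 in Slpi-/- and 8.11 in B6 with LPS, against 6.42 in Slpi-/- and 6.37 in B6 without). The neutrophil list was lower, at log2 sums of 11.68 to 11.74 with LPS against 11.997 to 12.09 without, and *Ly6g* (-0.77) and *Retnlg* (-0.61) were called. The platelet gene *Pf4* was higher, at 7.36 in Slpi-/- and 7.71 in B6 with LPS, against 5.73 in Slpi-/- and 5.62 in B6 (below background) without. Their part in the result was not tested.

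The corresponding question for BMBs was what IgE and antigen do. The 3 β2 genes *Itgb2*, *Itgam* and *Itgal* fell together, as did *Itgb7*, *Itga4* and *Selplg*, while *Itgae* and *Itgax* rose and *Itga2* did not pass. Of 13571 genes, 22.8% were called (12.2% higher, 10.6% lower), and the median was -0.57 over the 9 genes and -0.02 over all genes.

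*Itgb2* had signals of 10.94 (Slpi-/-) and 10.99 (B6) with IgE and antigen, against 12.05 on both unstimulated arrays. The fall was alike in both genotypes, and the fitted difference was -1.09 ± 0.09 (adjusted p = 0.0014). Its α partners moved the same way: *Itgam* was at 9.10 (Slpi-/-) and 8.95 (B6) with stimulation, against 9.63 (Slpi-/-) and 9.61 (B6) without (-0.59 ± 0.09, adjusted p = 0.0077), and *Itgal* was at 10.15 (Slpi-/-) and 10.10 (B6) with stimulation, against 10.71 (Slpi-/-) and 10.68 (B6) without (-0.57 ± 0.10, adjusted p = 0.0104). All stimulated arrays were below all unstimulated arrays in these genes.

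*Itgax*, the other α partner of CD18, was at 7.86 (Slpi-/-) and 6.47 (B6) with IgE and antigen, against 7.12 (Slpi-/-) and 6.12 (B6) without. Here the groups overlapped, because the stimulated B6 array was lower than the unstimulated Slpi-/- array, and the difference of 0.54 ± 0.12 (adjusted p = 0.0216) is one within genotype. *Itgae* was at 6.49 (Slpi-/-) and 5.78 (B6) with stimulation, both above background, against 5.36 (Slpi-/-) and 5.31 (B6) without, both below it, and thus at least 1.42-fold higher (fitted difference 0.80 ± 0.16, adjusted p = 0.0163).

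*Itgb7* was at 10.09 (Slpi-/-) and 10.07 (B6) with IgE and antigen, against 10.75 (Slpi-/-) and 10.91 (B6) without (-0.76 ± 0.10, adjusted p = 0.0042). *Itga4* was at 6.35 (Slpi-/-) and 5.99 (B6) with stimulation, against 7.10 (Slpi-/-) and 6.55 (B6) without, with both stimulated arrays below both unstimulated ones (-0.65 ± 0.10, adjusted p = 0.0064). *Selplg* was at 11.26 (Slpi-/-) and 11.22 (B6) with stimulation, against 11.57 (Slpi-/-) and 11.70 (B6) without, and thus lower (-0.40 ± 0.10, adjusted p = 0.0309). That call was lost without any 1 of the 8 BMB and BMEos arrays (adjusted p of 0.0532 to 0.169) and in a fit of the BMB arrays alone (adjusted p = 0.0544). The DX5 gene *Itga2* was at 10.15 (Slpi-/-) and 9.74 (B6) with stimulation, against 9.86 (Slpi-/-) and 9.85 (B6) without, and its difference of 0.09 had a 95% interval of -0.20 to 0.38 (adjusted p = 0.661).

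**Figure D3:**
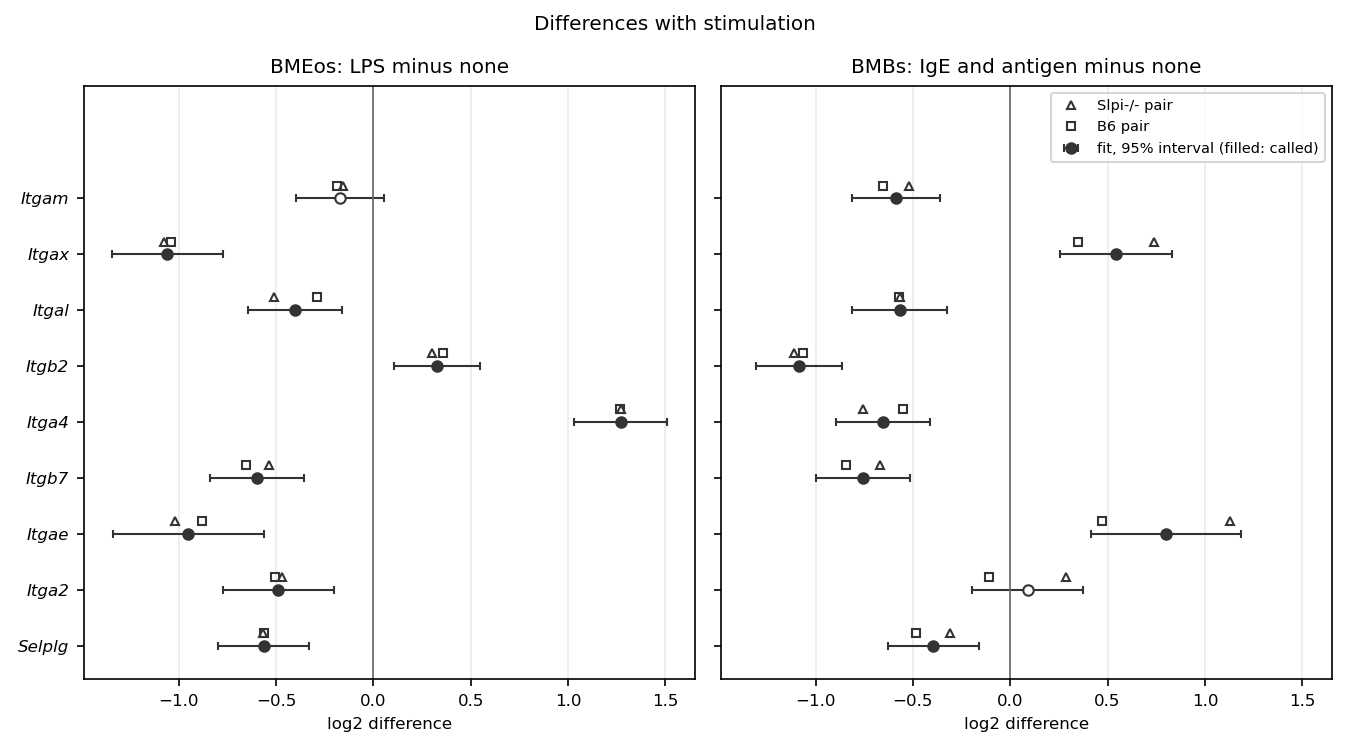
Log2 difference (horizontal axis) with LPS in BMEos (left) and with IgE and antigen in BMBs (right). Circles are the fit with its 95% interval (filled where called), triangles the Slpi-/- pair and squares the B6 pair. *Itga4* is higher with LPS (1.27) and lower with IgE and antigen (-0.65), and *Itgax* lower with LPS (-1.06) and higher with IgE and antigen (0.54).

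Set side by side, *Itga4* and *Itgb2* passed upward with LPS and downward with IgE and antigen, *Itgax* and *Itgae* passed in the opposite directions, and *Itgal*, *Itgb7* and *Selplg* passed downward with both. The stimuli, cell types and times differ, and the difference between the responses was not tested.

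Some IgE calls rested on single arrays. Without either Slpi-/- BMB array 3 calls were left (*Itgam*, *Itgb2* and *Itgb7*), without either B6 BMB array 5 were left (*Itgax*, *Itgb2*, *Itga4*, *Itgb7* and *Itgae*), and the paired t-test called 0 after adjustment and 2 at an unadjusted p under 0.05. The neutrophil list moved with stimulation, at log2 sums of 11.11 to 11.29 with IgE and antigen against 12.58 to 12.75 without, mainly through *Ly6g* (11.15 in Slpi-/- and 10.95 in B6 with stimulation, against 12.68 in Slpi-/- and 12.38 in B6 without). Of the 7 markers, 2 to 3 were above background with stimulation and 4 without. Its part in the fall of the β2 genes was not tested.

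The study's main contrast is genotype, and it was examined in each of the 5 pairs of arrays that share cell type and stimulus. Of the 9 genes, 0 were called over all pairs, in BMEos, in BMBs or for the difference between BMEos and BMBs. In the same limma fits 0% of 13571 genes were called over all pairs (722 genes and 3 of the 9 at an unadjusted p under 0.05), and 0.00737% (1 gene) in each of the others. At an unadjusted p under 0.05 these had 785 genes and 0 of the 9 in BMEos, 917 and 2 of the 9 in BMBs, and 826 and 3 of the 9 for the difference. The paired t-test also called 0 of the 9 after adjustment over all pairs, in BMEos and in BMBs, with 2, 2 and 0 of them at an unadjusted p under 0.05. The medians over the 9 genes were 0.05 over all pairs, 0.05 in BMEos and 0.09 in BMBs, against -0.01, 0.00 and -0.02 over all genes.

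*Itgax* had the widest gap between genotypes. In BMBs its signals were 7.12 in Slpi-/- against 6.12 in B6 without stimulation, and 7.86 against 6.47 with IgE and antigen, so that each Slpi-/- array was above both B6 arrays. In BMEos they were 9.80 against 9.51 without LPS and 8.73 against 8.47 with it, and in mast cells 5.49 against 5.13, both below background. *Itgax* was thus higher in Slpi-/- in 4 of the 4 pairs above background, by 0.26 to 1.39.

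The fitted difference in BMBs was 1.20 ± 0.12 (95% interval 0.91 to 1.48, unadjusted p = 3.55e-05, adjusted p = 0.0602), which did not pass and ranked 15th of 13571 genes by size. Without any 1 BMB array it equals the remaining pair, 1.00 without stimulation or 1.39 with it, so leaving out arrays is no separate check. The adjusted p over all alternatives ran from 0.0178, with a variance trend on the mean signal, to 0.982 by the paired t-test. In BMEos the difference was 0.28 (95% interval -0.01 to 0.56, adjusted p = 0.883) and over all pairs it was 0.66 (adjusted p = 0.887). The difference between BMEos and BMBs was -0.92 (95% interval -1.33 to -0.51, unadjusted p = 0.00125, adjusted p = 0.455), and that too did not pass.

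Dendritic cells carry CD11c, and 2 of their antigen presentation genes had higher signals on the Slpi-/- than on the B6 BMB arrays, though neither passed (adjusted p = 0.0602 for *Cd74* and 0.638 for *H2-Ab1*). *Cd74* was at 9.47 and 9.13 in Slpi-/- BMBs (without and with stimulation), against 8.47 and 8.12 in B6, and *H2-Ab1* was at 7.82 and 7.83 in Slpi-/-, against 7.33 and 7.42 in B6. *Ccr7* was at 9.60 and 7.94 in Slpi-/-, against 7.96 and 8.19 in B6, which overlapped. The defining genes *Cd209a*, *Xcr1* and *Flt3* lay between 5.01 and 5.59 on all BMB arrays and *Zbtb46* between 5.45 and 5.74, at or near the background limit. Over the whole list 3 to 4 of 7 markers were above background in Slpi-/- BMBs and 3 to 5 in B6 BMBs, with log2 sums of 10.22 to 10.89 and 9.82 to 9.88.

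Markers of other cells also had unequal signals between the genotypes in BMBs, with none called. The platelet genes *Pf4*, *Ppbp* and *Gp9* had differences of 1.08, 1.09 and 0.96, which came mostly from the stimulated pair. With stimulation these 3 genes were at 10.85, 11.45 and 8.80 in Slpi-/- against 8.96, 8.81 and 6.91 in B6. Without it they were at 10.16, 10.81 and 8.44 in Slpi-/- against 9.88, 11.27 and 8.42 in B6. The eosinophil chemokine receptor gene *Ccr3* had a difference of 1.25, with the stimulated B6 array (4.63) below background. Over the 6 eosinophil markers the median was 0.11. The neutrophil gene *Retnlg* had a difference of 0.78, against a median of -0.06 over the 7 neutrophil markers. The genes *Mpo*, *Elane* and *Ngp* of immature neutrophils had differences of -1.30, -0.83 and -0.97, and the unstimulated B6 BMB array was the one with *Mpo* at 8.84. Without that array the *Itgax* difference was 1.39, which is the value of the stimulated pair alone. The part of such cells in the *Itgax* values was not tested.

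The other 8 genes differed less. Of their 40 pairs, 37 differed by less than 0.5 on the log2 scale, and the exceptions were *Itga4* in unstimulated BMBs (7.10 in Slpi-/- against 6.55 in B6), *Itgae* in stimulated BMBs (6.49 in Slpi-/- against 5.78 in B6) and *Itgal* in mast cells (5.60 in Slpi-/-, below background, against 6.15 in B6). The 40 include pairs with both arrays below background, where a small difference says little. These are *Itgam*, *Itga4*, *Itgae* and *Itga2* in mast cells and *Itgae* in unstimulated BMBs. The same share over all genes was not computed. *Itga4* in BMBs differed by 0.45 ± 0.10 (95% interval 0.21 to 0.69, adjusted p = 0.424). *Itga2*, below background on both mast cell arrays, was higher in Slpi-/- in the other 4 of 4 pairs, by 0.01 to 0.40 (0.18 ± 0.07 over all pairs, adjusted p = 0.914).

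*Itgam*, *Itgb2* and *Selplg* had the narrowest intervals over all pairs. The difference of *Itgam* was 0.02 (95% interval -0.11 to 0.15), that of *Itgb2* 0.05 (-0.08 to 0.18) and that of *Selplg* 0.00 (-0.13 to 0.13), all within 0.2 of no difference on the log2 scale.

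**Figure D4:**
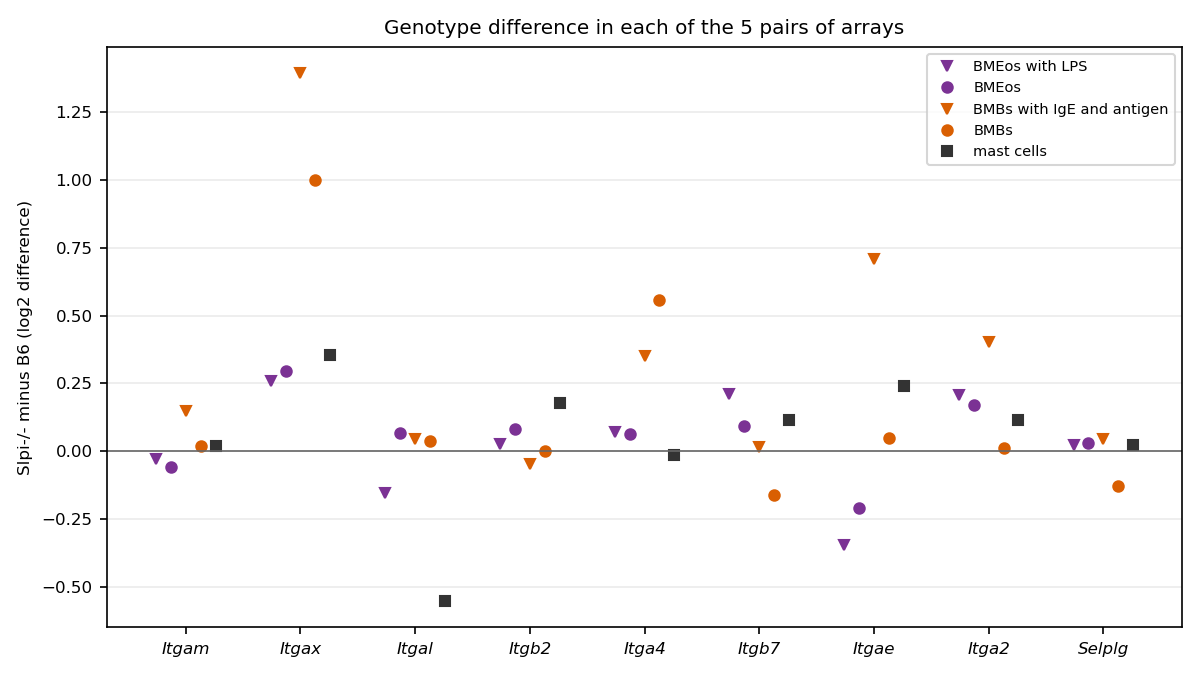
Slpi-/- minus B6 log2 difference (vertical axis) of each gene in the 5 pairs of arrays, 1 point per pair. The *Itgax* points of the 4 pairs above background run from 0.26 to 1.39, with the BMB pairs the highest, and the mast cell points of *Itgam*, *Itgax*, *Itga4*, *Itga2* and *Itgae* compare signals below background.

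Other adhesion genes were counted in the same fits, where over all genes 24.3% were higher and 26.8% lower in BMEos than in mast cells, 18.8% and 17.9% in BMBs than in mast cells, 18.6% and 21.2% in BMEos than in BMBs, 12.7% and 16.2% with LPS, and 12.2% and 10.6% with IgE and antigen. Of 14 other integrin subunits tested, 5 were higher and 4 lower in BMEos than in mast cells, and 5 were higher and 3 lower in BMBs than in mast cells, with medians of -0.07 and 0.16. *Itga6*, for a laminin receptor subunit, and *Itga1*, for a collagen receptor subunit, were below background in mast cells and at least 17.2-fold and 3.53-fold higher in BMBs, and their β partner *Itgb1* was higher by 3.11 on the log2 scale. BMEos were below BMBs in 7 of the 14 and above in 1 (*Itgav*, 0.62), with *Itga6* at -3.34 and *Itga1*, below background in BMEos, at least 3.69-fold lower than in BMBs. *Itga2b*, for platelet αIIb, was the subunit with the largest deficit in BMEos against mast cells (-1.83). With LPS, again not separable from sex, 2 of the 14 were higher, *Itga5* of the fibronectin receptor (1.497) and *Itgb1* (1.08), and 2 lower, *Itgb5* and *Itgb3*. With IgE and antigen *Itgb3* and *Itgav* rose and *Itgb5* fell (0.60, 0.38 and -0.89). Megakaryocyte and platelet genes, whose lineage uses αIIbβ3 and α6β1, were present too: *Ppbp* was at 10.81 to 11.45 on 3 BMB arrays and at 8.81 on the stimulated B6 array. Its part was not tested.

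Integrins become adhesive through talin, kindlin and the Rap1 pathway. The list counted here also holds integrin adaptors and other regulators. Of its 21 genes tested, 12 were higher and 3 lower in BMEos than in mast cells (median 0.48). In BMBs 11 were higher and 2 lower than in mast cells (median 0.32). The kindlin gene *Fermt3* was not called in BMEos or BMBs against mast cells (0.16 and 0.04). The kindlin gene *Fermt2*, above background on 1 of the 10 arrays, was lower in both (-0.73 and -0.55). *Rasgrp2*, which activates Rap1, and *Apbb1ip*, its effector RIAM, were both higher. *Rasgrp2*, below background in mast cells, was at least 3.98-fold higher in BMEos and at least 4.47-fold higher in BMBs, and *Apbb1ip* was higher by 2.07 and 2.17 on the log2 scale. The largest differences of BMEos in this list went the other way, with *Lpxn* lower than in mast cells (-3.95) and than in BMBs (-3.37). Between BMEos and BMBs 6 were higher and 3 lower, and the paralogous adaptors went opposite ways, *Skap2* higher by 1.497 and *Skap1*, below background in BMEos, at least 6.85-fold lower than in BMBs. With LPS, which cannot be told apart from sex here, 4 were higher and 1 lower in BMEos, among them *Fyb* (0.82) and *Rasgrp2* (-0.51). IgE and antigen raised 1 and lowered 5 in BMBs, among them vinculin, *Vcl* (-1.04).

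Of 8 ligands of integrins tested, *Cdh1*, for the E-cadherin that αEβ7 binds, was higher in BMBs than in mast cells by 5.36. The ligand gene *Thbs1*, below background in mast cells, was at least 135-fold higher in BMEos and at least 26.0-fold higher in BMBs. In BMEos the ligand gene *Icam1* was the one that rose most with LPS (2.70 ± 0.11, adjusted p = 4.24e-05), to 10.33 in Slpi-/- and 10.28 in B6, against 7.64 in Slpi-/- and 7.57 in B6 without. In all, 3 ligands were higher and 1 lower in BMEos than in mast cells, 5 and 1 in BMBs than in mast cells, and 2 and 4 in BMEos than in BMBs. With LPS 2 were higher and 2 lower, a comparison that carries the confound with sex. With IgE and antigen 0 were higher and 1 lower (*Fn1*, -0.70).

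Selectin binding by PSGL-1 depends on fucosylated and sialylated glycans, and binding to P-selectin also on tyrosine sulphation. Of 9 genes for these steps, 5 were higher and 1 lower in BMEos than in mast cells, 4 were higher and 0 lower in BMBs than in mast cells, and 1 was higher and 3 lower in BMEos than in BMBs. *Fut7*, the fucosyltransferase of selectin ligands, was higher in BMBs than in mast cells by 2.65 (1 of the 2 mast cell arrays was below background) and lower in BMEos than in BMBs (-2.48), a comparison in which *Selplg* itself did not pass. *Tpst1*, a tyrosine sulphotransferase, was higher by 2.39 with LPS, at 8.47 in Slpi-/- and 8.10 in B6, against 5.83 in Slpi-/- and 5.97 in B6 without it. With LPS 3 of the 9 were higher and 2 lower, a comparison that carries the confound with sex. Of 7 other selectin and selectin ligand genes, *Cd44* was higher in BMEos than in mast cells (2.52 ± 0.11) and *Cd24a*, whose product binds P-selectin, at least 144-fold higher, with mast cells below background, whereas *Cd34* was lower (-3.25). By limma, 0 genes of these 5 lists were called for genotype over all pairs, in BMEos, in BMBs or for the difference between them.

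The genes whose pattern over the 10 arrays lay nearest to a member are given as a description, with no test. The measure is the root mean square difference after each gene is centred on its own mean, over the 6 members that spanned more than 2 log2 units. *Cd80* (0.17) and the CSF-1 receptor gene *Csf1r* (0.26) lay nearest to *Itga4*, *Anxa1* (0.28) to *Itgal*, *Litaf* (0.29) to *Itga2*, *Septin1* (0.32) to *Itgb2*, and *Lilra6* and *Arhgap10* (0.38 each) to *Itgam* and *Itgax* in that order. The 10 points share cell type and stimulus.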

How the data were processed

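The authors hybridised RNA to Affymetrix GeneChip Mouse Gene 1.0 ST arrays, and deposited log2 signals made by robust multi-array averaging (RMA) with affy, which were used as deposited. Of 34760 probe sets, 21640 carry 1 symbol in the platform annotation, 1321 several and 11799 none; only the first were used, with the probe set of highest mean for the 954 genes that have several. No coordinates of probe sets are given, since the platform annotation names no build. Those of the *Itgam* and *Itgax* promoter windows come from RefSeq (GRCm38.p6). Genes above background on at least 1 array of a fit were tested with limma 3.58.1 in R 4.3.3 (eBayes, Benjamini-Hochberg, threshold 0.05), checked on simulated data. The fit of 6 unstimulated arrays had cell type and genotype. The fit of all 10 had a mean per cell type and genotype plus IgE and LPS terms. Both leave 2 residual degrees of freedom. The third had 5 blocks of cell type and stimulus plus genotype, which leaves 4. Pairs come from the design. The 9 genes and the other lists were chosen with earlier results of these data known. All members are named. From each other list up to 4 genes that passed are named per comparison, and these are not always the largest. The number of arrays limits the precision. Alternatives were centring, quantile normalization, the mean of probe sets, no filter, a 99th percentile background, a variance trend, the methods' t-test, fewer or more arrays, no block and single arrays left out. Python 3.11.15 wrote the tables and drew the plots.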

Additional observations from a re-analysis of the deposited data

Results flagged for a closer look

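*Itga2* was the one member whose response to a stimulus had opposite signs in the genotypes. With IgE and antigen it was higher by 0.28 in Slpi-/- BMBs and lower by a difference of -0.11 in B6 BMBs, and these responses differ by 0.39 on the log2 scale. Each rests on 1 pair of arrays, and the difference was not tested. Megakaryocyte and platelet genes had opposite signs in the same pairs: *Pf4* differed by 0.68 in Slpi-/- and -0.92 in B6, *Ppbp* by 0.64 in Slpi-/- and -2.46 in B6, and *Gp9* by 0.36 in Slpi-/- and -1.51 in B6. Their part in the *Itga2* values was not tested.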

How the results depend on the processing

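The methods' t-test called 0 members between BMEos and mast cells, between BMBs and mast cells, between BMEos and BMBs, with LPS and with IgE, against 8, 8, 7, 8 and 8 by limma; it has 1 degree of freedom on these pairs and called 1 gene or none in any of them over all genes. With a variance trend, 1 member (*Itgax*) was called for genotype in BMBs. Leaving out single arrays gave 8 to 8 members in each comparison with mast cells, 5 to 7 between BMEos and BMBs, 3 to 8 with LPS, 3 to 8 with IgE and 0 to 0 for genotype, where an arm left with 1 array is assumed to vary like the others. Centring or quantile normalization ended the LPS call of *Itgb2* (0.23) or *Itga2* (-0.37), and testing all genes without a filter ended those of *Itgal* and *Itgb2* with LPS and of *Selplg* with IgE, which BMB arrays alone ended too (0.0544). *Itgb2* between BMEos and BMBs passed with quantile normalization (-0.40), the 99th percentile background, the trend and all 10 arrays. Over 1332 values of single members under alternatives, 0 called values changed sign, and 27 uncalled ones did, all with a main value within 0.10 of 0. The labels give no replicate numbers; shared cell type and stimulus, or shared genotype, made the pairs. Signals near the background limit limit *Itgae* throughout and *Itgax* and *Itga4* in BMBs and mast cells.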
